A study of Mus musculus with 6 samples.

Results

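The 7 genes described here were grouped as regulators of the double-positive (DP) stage of thymocyte development: Myb, Gfi1, Bcl11b, Satb1, Themis, Arpp21 and Ptcra. They were followed across 3 stages of CD8 T cell maturation. They were chosen by name with earlier results of these data known, so their counts beside shares of all probes are descriptive. Every probe of the array whose annotation gives 1 of these symbols and no other was used. This gave 23 probes for the 7 genes, out of 34945 probes for 18193 genes with a single symbol. Thymocytes came from 6 mice aged 5 to 6 weeks that were homozygous for the N15 T cell receptor transgene, lacked Rag2 and had the H-2b haplotype; all groups share this background. Sorting by CD4 and CD8 antibodies gave DP cells (CD4+CD8+, immature), CD4intCD8+ cells with an intermediate amount of CD4, and CD8 single-positive cells (CD8SP, CD4-CD8+). Each stage was measured on 2 arrays, from a pair of independent experiments. The sources used here do not say whether an array holds cells of 1 mouse or of a pool, so the p-values cover only how far these arrays differ, which may be technical. Because every thymocyte carries the same class I restricted receptor and no receptor gene can be rearranged in the absence of Rag2, the cells mature towards the CD8 lineage and are not a sample of the normal repertoire.

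DP thymocytes are resting cells that rearrange the T cell receptor alpha chain, carry both coreceptors and die unless their receptor is engaged with suitable strength. Transcription factors such as Myb and Gfi1 and the zinc finger protein Bcl11b sustain this state together with the genome organiser Satb1, and the program is taken down as positively selected cells mature. Themis adjusts the signal of the receptor during selection, Arpp21 encodes an RNA-binding protein that is abundant in DP cells, and Ptcra encodes the pre-T cell receptor alpha chain, which pairs with the beta chain before the alpha chain is made.

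The median probe intensity lay between 24.9 and 25.7 on the arrays, and 2.78% to 4.33% of values were below 0. The ratio of 3' to 5' beta-actin probes, a measure of RNA integrity, ran from 1.98 to 2.62 on 5 arrays and was 3.47 on CD4intCD8+ replicate 2. It was lowest on the DP arrays (1.98 and 2.14). Fits that take this ratio as a covariate therefore cannot fully separate it from the stage. The summed intensity of 6 DP markers was 10504 and 11799 (DP), 5985 and 4857 (CD4intCD8+) and 4963 and 4893 (CD8SP). This sum was highest in DP but did not separate the later stages. It includes Cd4, Cd8a and Cd8b1, genes of the coreceptors used for sorting. The sum of 6 markers of mature cells rose in the order of the stages, at 1128 and 708, 2266 and 1339, and 3211 and 3344. Erythroid, epithelial, dendritic, myeloid, B, gamma delta and natural killer markers were dim: the highest single intensity was 127. Klrd1, which encodes a natural killer receptor chain, was counted among the markers of mature cells and read 275 and 485 in CD8SP. In sorted populations measured in bulk, fewer cells with a transcript and less transcript per cell cannot be told apart.

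Of the 7 genes 6 fell after the DP stage and Ptcra was not called. Of the 21 member probes bright enough to be tested, 16 were lower in CD4intCD8+ than in DP cells, 0 were higher and 5 were not called (limma, adjusted p under 0.05), where 3.2% of the 20967 tested probes were called lower, 4.25% higher and 7.45% in either direction. By the CD8SP stage 19 were lower than in DP, 0 were higher and 2 were not called, against 6.21% of tested probes called lower, 7.71% higher and 13.9% in either direction. With the replicate number as a block 19 were lower in each of these comparisons, against 7.96% and 11% of tested probes. The median log2 change of the tested members was -0.90 at the first step and -1.35 over the whole span, beside a median of 0.00 and -0.01 over all tested probes. The 2 probes under the filter on dim signals, both of Arpp21, are described with that gene.

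**Figure D1:**
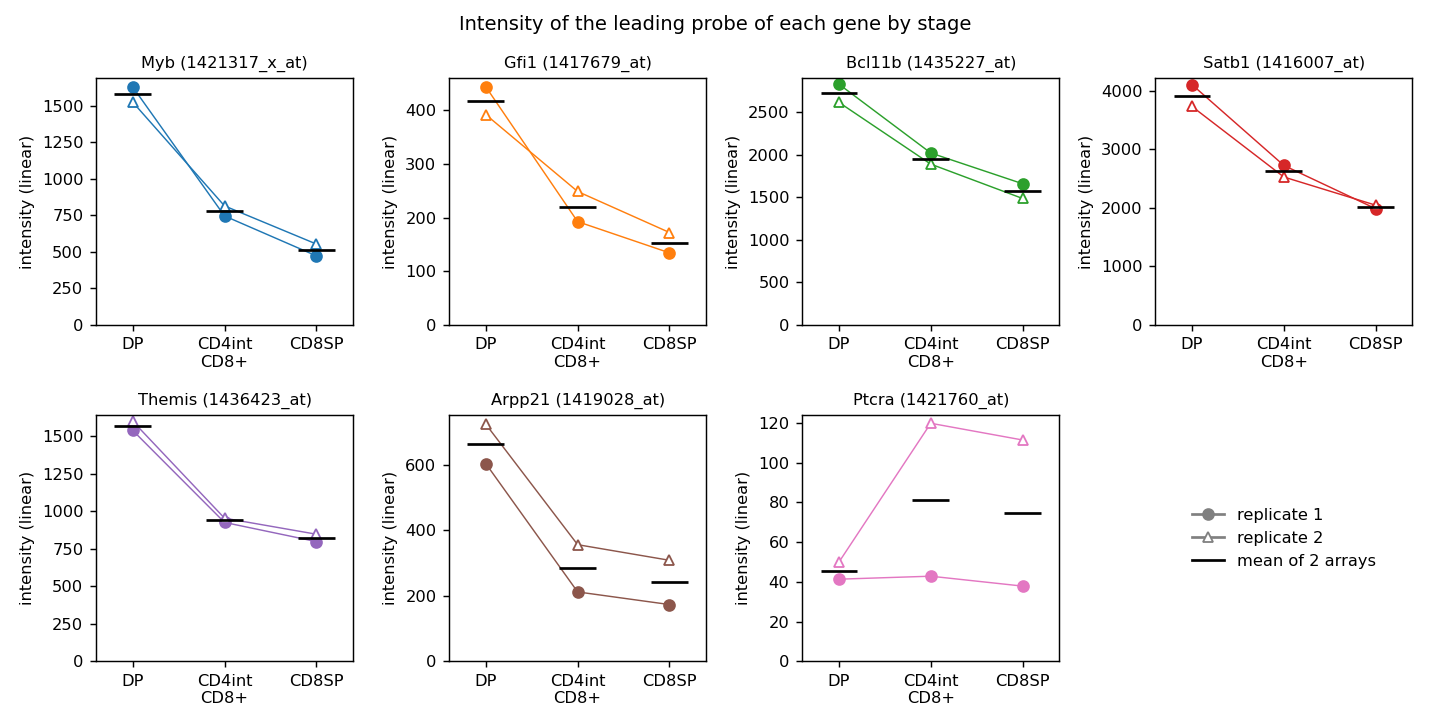
Linear intensity (y axis, from 0) of the leading probe of each gene, that with the highest mean, at the 3 stages (x axis); symbols are single arrays, lines join arrays of the same replicate number and bars are means of 2 arrays. The DP arrays lie above the later arrays for 6 genes, while for Ptcra the replicate 2 arrays of both later stages, at 120 and 111, stand apart from the other 4.

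Myb is a transcription factor that DP cells need for their survival. The leading Myb probe, 1421317_x_at, read 1629 and 1525 (DP), 745 and 814 (CD4intCD8+) and 472 and 553 (CD8SP). The DP arrays were the highest, the CD8SP arrays the lowest, and no 2 stages overlapped. Myb fell by 1.01 ± 0.12 (SE) on the log2 scale at the first step (limma adjusted p = 0.0033) and by 1.62 ± 0.12 over the whole span (adjusted p = 8.95e-05), to 32.5% of its DP mean. Probe 1450194_a_at went from 911 and 683 in DP to 337 and 348 in CD4intCD8+ and 222 and 219 in CD8SP, and probe 1422734_a_at from 589 and 407 to 181 and 195 and then to 118 and 122. All 3 Myb probes were called at the first step, between -1.01 and -1.35 on the log2 scale, and over the span, between -1.62 and -1.97. These 6 calls were kept in every alternative run. The second step gave -0.60 to -0.62, which was not called (adjusted p = 0.133 for the leading probe); with the replicate number as a block, the leading probe and 1450194_a_at were called there (adjusted p = 0.0169 and 0.0446). The Myb changes within replicate 1 and replicate 2 were -1.12 and -0.90 at the first step, and -0.65 and -0.55 at the second.

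Gfi1 encodes a zinc finger repressor that recruits histone-modifying cofactors, and 1 probe represents it. Its intensity was 444 and 392 (DP), 192 and 249 (CD4intCD8+) and 134 and 172 (CD8SP). The stages did not overlap, although the lower CD4intCD8+ array and the higher CD8SP array were close. Gfi1 fell by 0.91 ± 0.18 on the log2 scale from DP to CD4intCD8+ (limma adjusted p = 0.0182) and by 1.42 ± 0.18 to CD8SP (adjusted p = 0.00112), where 36.6% of the DP mean was left. The first-step call was lost without DP replicate 1, DP replicate 2 or CD4intCD8+ replicate 1, and without the intensity trend (adjusted p from 0.0577 to 0.133), while the call over the span was kept in every alternative. Within replicate 1 the first-step change was -1.18 and within replicate 2 it was -0.65.

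Bcl11b, the zinc finger factor that fixes T cell identity, fell on all 4 of its probes. The leading probe, 1435227_at, read 2828 and 2614 (DP), 2019 and 1888 (CD4intCD8+) and 1657 and 1484 (CD8SP). The second probe by brightness, 1450339_a_at, read 2651 and 2990, then 1579 and 1450, then 1369 and 1325. Neither probe had overlapping stages. The first-step change was -0.48 ± 0.09 for the leading probe (limma adjusted p = 0.0195) and -0.89 ± 0.10 for 1450339_a_at (adjusted p = 0.00257), -0.67 ± 0.12 for 1452966_at and -1.04 ± 0.25 for the dimmest, 1438784_at. Over the span the 4 probes ranged from -0.79 to -1.77, so that 57.7% of the DP mean was left by the leading probe and 29.4% by the dimmest. Only 1450339_a_at kept its first-step call in every alternative: the other 3 probes lost theirs without DP replicate 1, DP replicate 2 or CD4intCD8+ replicate 2, in the fit without a trend and in that with actin as covariate (adjusted p from 0.0676 to 0.457). With that covariate the change of 1438784_at was -0.60. All 4 calls over the span were kept.

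Satb1, which ties distant stretches of chromatin into loops, had 5 probes, of which 4 fell. The leading probe, 1416007_at, gave 4105 and 3731 (DP), 2723 and 2525 (CD4intCD8+) and 1983 and 2044 (CD8SP). Probe 1436182_at gave 1795 and 1635, then 1042 and 929, then 617 and 599. On both, each stage lay clear of the one before. The leading probe fell by 0.58 ± 0.09 on the log2 scale at the first step (limma adjusted p = 0.00711) and by 0.96 ± 0.09 over the span (adjusted p = 0.000228). Probe 1436182_at fell by 0.80 ± 0.11 and 1.49 ± 0.11.

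At the second step the 4 probes that fell over the span had log2 changes of -0.38 (1416007_at), -0.46 (1416008_at), -0.69 (1436182_at) and -0.63 (1439449_at). None of them was called in the fit with stage as its only term (limma adjusted p from 0.0787 to 0.46). With the actin covariate 1436182_at was called at this step (-0.76, limma adjusted p = 0.0374). With the replicate block 1416007_at, 1416008_at and 1436182_at were called there (adjusted p = 0.031, 0.0178 and 0.00449). Probe 1416008_at had a larger estimate at the second step than at the first (-0.33 ± 0.09; adjusted p = 0.07, and 0.0152 with the block), but the difference between its steps was 0.13, with a 95% interval from -0.24 to 0.50. Among the first-step calls, that of the leading probe was lost without DP replicate 1 or CD4intCD8+ replicate 2, without the trend and with the actin covariate (adjusted p from 0.0507 to 0.0924), that of 1436182_at with the actin covariate (0.0648), and that of 1439449_at without DP replicate 1 or CD4intCD8+ replicate 2 and with the covariate (from 0.0508 to 0.0936). The fifth probe, 1439315_at, was dim, at 19.6 to 31.6 on the 6 arrays, and its log2 change over the span was 0.26 (95% interval from -0.30 to 0.82). Its stages overlapped, and the difference between this probe and the other 4 was not tested.

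Themis encodes a protein that binds the adaptor Grb2 and tunes receptor signalling in DP cells. Its leading probe, 1436423_at, read 1540 and 1601 (DP), 926 and 955 (CD4intCD8+) and 799 and 848 (CD8SP). The arrays of a stage were close to each other and the stages did not overlap. Themis fell by 0.74 ± 0.10 on the log2 scale at the first step (limma adjusted p = 0.00485, and 0.0518 without DP replicate 2) and by 0.93 ± 0.10 over the span (adjusted p = 0.000481), leaving 52.4% of the DP mean. The second step of this probe gave -0.19, with a 95% interval from -0.41 to 0.03. The 3 dimmer probes read 160 and 161 (1439719_at), 131 and 113 (1442022_at) and 86.2 and 80.2 (1443192_at) in DP, and 71.5 and 69.0, 50.7 and 38.6, and 24.7 and 40.3 in CD8SP. All 3 were called over the span, from -1.13 to -1.35. Of these, 1442022_at and 1443192_at were called at the first step, while 1439719_at was not (-0.60 ± 0.17, adjusted p = 0.0618), and was with the block (adjusted p = 0.0222). When any single DP or CD4intCD8+ array was left out, the first-step calls of 1442022_at and 1443192_at were lost (adjusted p from 0.0562 to 0.20). The span call of 1443192_at was lost without DP replicate 1 (0.0631) and without DP replicate 2 (0.0511).

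All 3 tested probes of Arpp21 fell over the span, and the leading one read higher in replicate 2 than in replicate 1. The leading probe, 1419028_at, read 604 and 725 (DP), 212 and 356 (CD4intCD8+) and 174 and 309 (CD8SP). Both later stages lay below DP but overlapped each other, with replicate 2 the higher array at every stage. Arpp21 fell by 1.25 ± 0.29 on the log2 scale at the first step (limma adjusted p = 0.0329) and by 1.49 ± 0.29 over the span (adjusted p = 0.00929). With the actin covariate its first-step change was -2.04 (adjusted p = 0.00377). The first-step call was lost without DP replicate 1, DP replicate 2 or CD4intCD8+ replicate 1 and without the trend (adjusted p from 0.0881 to 0.174), and the span call without DP replicate 2 (0.0806). Within replicate 1 the change over the span was -1.77, and within replicate 2 it was -1.21.

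The other Arpp21 probes were dimmer. Probe 1424248_at read 107 and 107 (DP), 38.1 and 53.5 (CD4intCD8+) and 29.3 and 37.0 (CD8SP), and was called at the first step (-1.14 ± 0.21, limma adjusted p = 0.0138; 0.0981 and 0.0929 without DP replicate 1 and DP replicate 2). Probe 1442121_at went from 49.6 and 51.6 to 13.1 and 23.9 and then to 5.91 and 17.7; its first step was not called (-1.25 ± 0.37, adjusted p = 0.0724), but was with the block (0.0161); with the actin covariate it was -2.0 (adjusted p = 0.0548). The remaining 2, 1451280_at and 1440429_at, had DP means of 20.1 and 14.3 and lay under the filter; their CD8SP means were 6.94 and 0.11, too near 0 for a fold change. The Arpp21 locus also holds the gene of a microRNA, Mir128-2, on the same strand. The array does not measure the mature microRNA, so the Arpp21 probes are the only readout of the locus here. The mature 3p microRNA is given from RefSeq (GRCm38.p6, chr9:112118644-112118664, minus strand), 5' to 3', with the seed, bases 2 to 8, in capitals.
mmu-miR-128-3p: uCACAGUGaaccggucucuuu

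Ptcra was the only one of the 7 genes with no probe called lower. Its probe, 1421760_at, read 41.4 and 49.9 (DP), 42.9 and 120 (CD4intCD8+) and 37.9 and 111 (CD8SP). In replicate 1 the 3 stages were nearly level, and in replicate 2 both later stages lay well above DP, so that the stages overlapped. The log2 change was 0.61 at the first step (95% interval from -0.50 to 1.71; limma adjusted p = 0.493) and 0.48 over the span (from -0.62 to 1.59; adjusted p = 0.573). Within replicate 1 these changes were 0.05 and -0.11, and within replicate 2 they were 1.17 and 1.07. Neither was called with the block (adjusted p = 0.142 and 0.226).

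Genes of cycling cells read higher in replicate 2 at both later stages, as Ptcra did. The sum of 5 markers of double-negative cells did so in CD8SP but not in CD4intCD8+. The summed intensity of 4 genes of cycling cells was 2624 and 2803 (DP), 3427 and 4800 (CD4intCD8+) and 2953 and 4242 (CD8SP), so that replicate 2 was the higher array at both later stages. Mki67, a marker of cycling cells, read 957 and 1276 in CD4intCD8+ and 751 and 1160 in CD8SP. Among markers of double-negative cells, the stage at which Ptcra is known to be highest, the summed intensity of 5 genes was 255 and 241 (DP), 359 and 336 (CD4intCD8+) and 337 and 393 (CD8SP). The brightest of them, Igll1, a surrogate light chain gene, read 115 and 103, then 185 and 174, then 167 and 214, and was called higher at the first step (log2 change 0.69 ± 0.16, limma adjusted p = 0.0368) and over the span (0.77 ± 0.16, adjusted p = 0.015). Kit, under the filter, read 11.1 and 6.19, then 21.2 and 13.6, then 32.4 and 36.6. Il2ra read 19.0 to 34.3 over the 6 arrays, and Cd44 and Hes1 were not called in either comparison. The actin ratio was 1.98 and 2.14 for DP, 2.37 and 3.47 for CD4intCD8+ and 2.28 and 2.62 for CD8SP. With it as a covariate the Ptcra change was -0.81 at the first step (adjusted p = 0.404). The part of cycling cells, of double-negative cells or of RNA quality in the Ptcra difference was not tested.

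**Figure D2:**
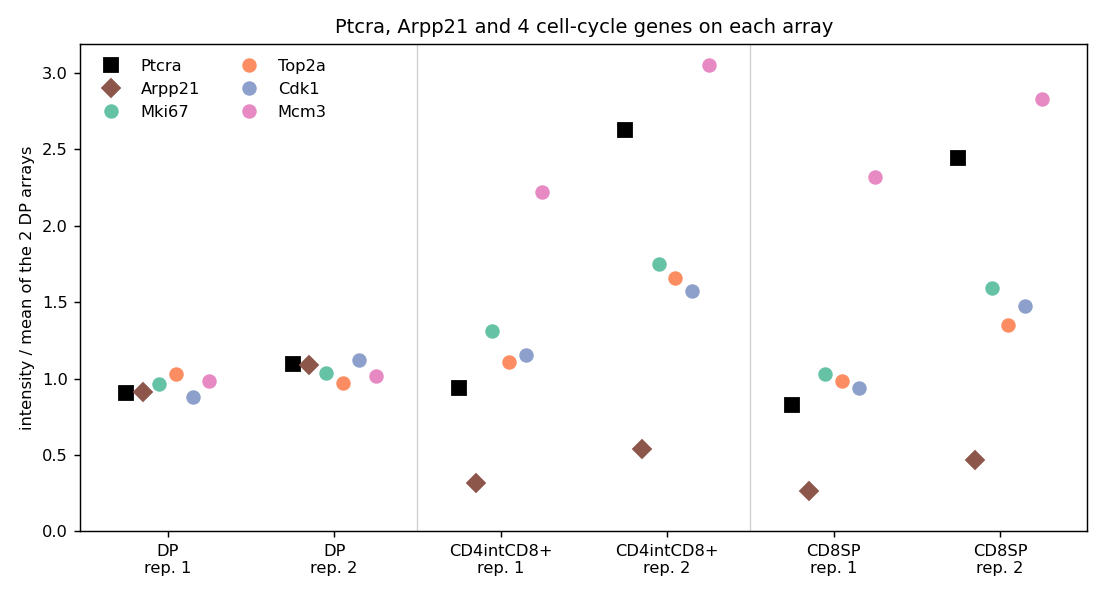
Intensity divided by the mean of the 2 DP arrays (y axis, no unit) on each of the 6 arrays (x axis) for Ptcra, the leading Arpp21 probe and 4 genes of cycling cells; each symbol is 1 array. Replicate 2 lies above replicate 1 in CD4intCD8+ and in CD8SP for all 6 genes, with Ptcra at 42.9 and 120 in CD4intCD8+ before division.

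The bases before the annotated start of Ptcra hold a pair of E-boxes, the motif of the E proteins Tcf3 and Tcf12, which are known activators of this gene. The stretch is shown beside those of Myb and Bcl11b, which fell, because each of these 3 genes has a single start in the table of promoters (RefSeq, GRCm38.p6, 250 bases before the start, minus strand, 5' to 3'). Ptcra lies at chr17:46763713-46763962, Myb at chr10:21160985-21161234 and Bcl11b at chr12:108003415-108003664. E-boxes (CANNTG, both strands) are in capitals.
Ptcra: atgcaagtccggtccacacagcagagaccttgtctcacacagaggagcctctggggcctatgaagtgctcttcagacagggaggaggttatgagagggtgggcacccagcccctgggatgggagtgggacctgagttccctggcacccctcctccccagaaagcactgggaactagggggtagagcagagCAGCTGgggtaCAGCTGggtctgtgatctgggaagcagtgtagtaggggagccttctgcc
Myb: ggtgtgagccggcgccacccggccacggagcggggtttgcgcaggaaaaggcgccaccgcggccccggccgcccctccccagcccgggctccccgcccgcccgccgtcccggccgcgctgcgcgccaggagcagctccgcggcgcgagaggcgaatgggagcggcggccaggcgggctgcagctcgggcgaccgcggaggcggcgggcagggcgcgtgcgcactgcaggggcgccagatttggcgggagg
Bcl11b: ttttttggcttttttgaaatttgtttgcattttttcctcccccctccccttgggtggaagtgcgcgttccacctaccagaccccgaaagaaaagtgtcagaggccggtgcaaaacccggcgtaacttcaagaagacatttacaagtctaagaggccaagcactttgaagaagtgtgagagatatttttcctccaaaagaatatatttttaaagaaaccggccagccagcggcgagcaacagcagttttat

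Ptcra had 2 E-boxes, and Myb and Bcl11b had 0 each in this window, where 66.2% of 32851 promoters held at least 1. E-boxes also lay before other members that fell, each with several listed starts. Each Gfi1 start had 1, the Themis starts had 2 and 1, the Arpp21 starts 1 to 5 and the Satb1 starts 0 to 2. The Myb core motif (AACNG, both strands; it overlaps an E-box spelled CAACTG) occurred 3 times before Bcl11b and 0 times before Myb and Ptcra, and was present in 74.2% of promoters. The core of the Gfi1 motif (AATC, both strands) occurred 1 time before Myb and 0 times before Bcl11b and Ptcra, and was present in 69.0% of promoters. These matches describe the letters only. Tcf12 fell from 1291 and 1101 in DP to 755 and 790 in CD4intCD8+ (log2 change -0.62 ± 0.12, limma adjusted p = 0.0162) and 658 and 719 in CD8SP (-0.79 ± 0.12 over the span, adjusted p = 0.00266). Tcf3, named after its value was seen, had a log2 change of -0.42 over the span (adjusted p = 0.103; 0.0473 with the block).

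**Figure D3:**
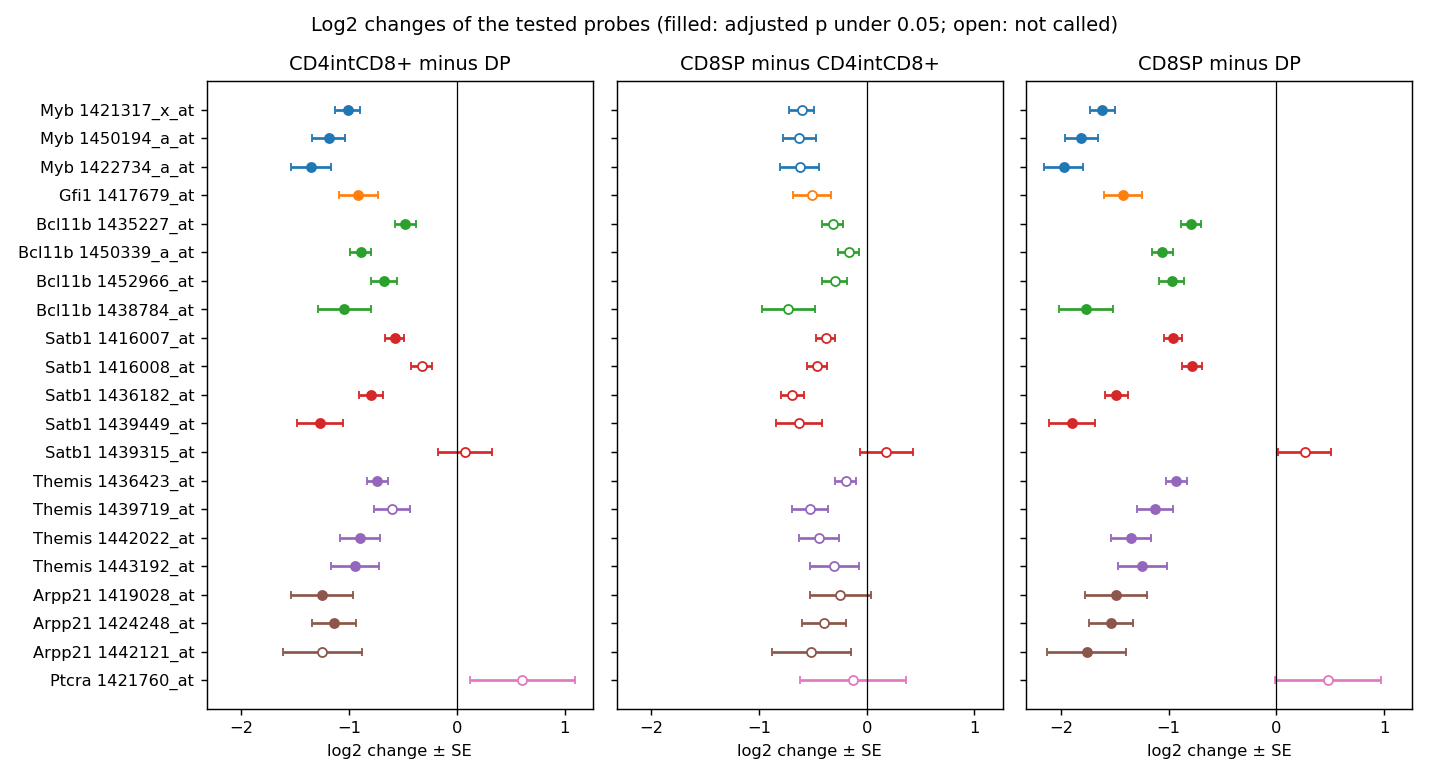
Log2 change ± SE (x axis) of the 21 tested probes (y axis, coloured by gene) at each step and over the whole span; filled symbols have a limma adjusted p under 0.05. All symbols of the middle panel are open, and the probes of 6 genes lie left of 0 over the span except the dim Satb1 probe 1439315_at.

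The steps were compared over all members. From CD4intCD8+ to CD8SP 0 of the 21 probes were called by limma. Of all tested probes 0.0191% were called lower, 0.0668% higher and 0.0858% in either direction (0.094% of leading probes). At a looser threshold, 13 of the 21 had an unadjusted limma p under 0.05. The share of all probes at that threshold was not computed, so this count has no background to be read against. With the replicate block 5 were called lower, 2 of Myb and 3 of Satb1, against a background of 0.525% lower and 1.31% in either direction. The median change was -0.45, beside -0.01 over all tested probes. Of the 21 estimates 20 were negative, and the share of negative estimates over all probes was not computed. Of all 23 probes, 21 had CD4intCD8+ arrays that lay below both DP arrays, where 27% of tested probes did, 21 had CD8SP arrays below both DP arrays, where 29% did, and 18 were lower without overlap at both steps, where 5.6% did. The difference between the steps was not called for any member (adjusted p from 0.376 to 0.951 with limma). With the block 0 were called, against 0.982% of tested probes. For this difference 3 members had an unadjusted limma p under 0.05, also without a share over all probes. The largest such difference in size was that of the leading Arpp21 probe, at -1.01 with a 95% interval from -2.13 to 0.12.

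The first-step count moved with single arrays. It was 16 of 21 with all arrays, and 8 with the actin covariate. Without DP replicate 1 it was 6, without DP replicate 2 it was 7 and without CD4intCD8+ replicate 2 it was 9, while the count over the span was 17, 16 and 19. The same arrays moved the calls over all probes at the first step from 1563 to 312, 168 and 431.

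Most genes of a list of the DP program, also chosen with earlier results known, fell too. Among 20 listed genes 18 could be tested: 13 were lower in CD4intCD8+ and 0 higher, and 15 were lower in CD8SP and 0 higher, where 3.42% and 6.25% of leading probes were called lower. With the block 16 and 17 were lower, against 7.96% and 11% of all tested probes. Their median log2 changes were -0.81 and -1.16, beside 0.01 for all leading probes in both comparisons. Rag1, a subunit of the recombinase, went from 1046 and 1054 in DP to 101 and 134 in CD4intCD8+ and 57.8 and 97.9 in CD8SP (-3.11 ± 0.23 and -3.70 ± 0.23). Bcl6, a transcriptional repressor, went from 606 and 601 to 190 and 216 and then to 110 and 101 (-1.55 ± 0.14 and -2.46 ± 0.14). Rag2, the other subunit, read 137 and 193, then 14.8 and 30.1, then 2.06 and 17.4; it is the gene inactivated in these mice, and its first-step call was lost without either DP array (adjusted p = 0.0732 and 0.109). Cd4, a sorting marker, read 351 and 515 in DP and at most 11.8 afterwards, also in the CD4intCD8+ cells, which were sorted for intermediate surface CD4. Leaving out DP replicate 1 lowered the first-step count to 4, DP replicate 2 to 3 and CD4intCD8+ replicate 2 to 8, the actin covariate lowered it to 8, and DP replicate 2 lowered the count over the span to 10.

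Genes reported as targets of Myb, Gfi1, Bcl11b or Satb1 moved in both directions. Of 19 listed genes, which overlap the DP list, 16 were tested: 6 fell and 3 rose at the first step, and 6 fell and 4 rose over the span, with a median log2 change of -0.02. The background called in either direction was 8.26% and 15.1% of leading probes. With the block 7 fell and 4 rose at the first step, against 17.4% of all tested probes in either direction. Over the span 7 fell and 5 rose with the block, against 23.4%. Il2rb, a receptor chain for interleukins 2 and 15 that Bcl11b is reported to restrain, rose from 13.8 and 12.1 in DP to 108 and 66.3 in CD4intCD8+ and 173 and 189 in CD8SP (log2 change over the span 3.31 ± 0.23, limma adjusted p = 6.46e-05). The other named members are Rag1, Rag2 and Cd4, given above. The first-step counts were 2 lower and 2 higher without DP replicate 1, and 1 and 1 without DP replicate 2; over the span 3 fell without DP replicate 2.

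Cofactors through which these factors act were called about as often as all genes. Of 12 genes, 0 fell and 1 rose at the first step, where 8.26% of leading probes were called in either direction, and 1 fell and 1 rose over the span, where 15.1% were. With the block 1 fell and 1 rose at the first step, against 17.4% of all tested probes in either direction. Over the span 2 fell and 1 rose with the block, against 23.4%. Rbbp7, a histone-binding subunit of the NuRD complex, read 1534 and 1435 in DP and 1896 and 1804 in CD8SP (0.32 ± 0.09, limma adjusted p = 0.0432). Crebbp, a histone acetyltransferase that binds Myb, read 529 and 575 in DP and 403 and 399 in CD8SP (-0.45 ± 0.13, adjusted p = 0.0418). The span call of Rbbp7 was lost without any single array (adjusted p from 0.0661 to 0.177), and that of Crebbp without either DP or either CD8SP array (from 0.107 to 0.192).

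Signalling partners of Themis fell in part. Of 12 listed genes 10 were tested, with 2 lower at the first step and 4 over the span, 0 higher in either, where 3.42% and 6.25% of leading probes were called lower. With the block 5 and 7 were lower, against 7.96% and 11% of all tested probes. Over the span the adaptor gene Lat changed by -0.57 ± 0.11 (limma adjusted p = 0.00918), the adaptor gene Lcp2 by -0.73 ± 0.16 (0.016), Rasgrp1, which activates Ras, by -0.52 ± 0.10 (0.00735) and Tespa1, needed for positive selection, by -0.86 ± 0.16 (0.00863). Leaving out DP replicate 1 lowered the count over the span to 2, DP replicate 2 to 1 and CD8SP replicate 2 to 0. The first-step count fell to 0 when either DP array or CD4intCD8+ replicate 2 was left out, and in the fit with actin. The median change over the span was -0.41.

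Genes of the pre-T cell receptor and its drivers split. Of 10 tested, 2 fell and 1 rose at the first step, and 4 fell and 2 rose over the span, where 8.26% and 15.1% of leading probes were called in either direction. With the block 6 fell and 1 rose at the first step, against 17.4% of all tested probes, and 5 fell and 2 rose over the span, against 23.4%. At the first step 0 fell when either DP array or CD4intCD8+ replicate 2 was left out. Notch3 read 164 and 170 (DP), 86.6 and 98.2 (CD4intCD8+) and 73.2 and 89.6 (CD8SP) (-0.82 ± 0.16 at the first step, limma adjusted p = 0.02). Cd247, the zeta chain of the receptor complex, changed by -0.70 ± 0.13 over the span (adjusted p = 0.00639; 0.0531 without DP replicate 1). Dtx1, a target of Notch, rose from 192 and 171 in DP to 380 and 308 in CD4intCD8+ and 705 and 535 in CD8SP (1.73 ± 0.17, adjusted p = 0.000368). The first-step calls were lost without DP replicate 1, DP replicate 2 or CD4intCD8+ replicate 1 for Notch3 and Dtx1, and without CD4intCD8+ replicate 2 for Notch3 (adjusted p from 0.0533 to 0.114); for Tcf12 they were lost without DP replicate 1, DP replicate 2 or CD4intCD8+ replicate 2 (from 0.0553 to 0.115).

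Of 10 genes listed as relatives of the 7 genes, 7 were tested, with 0 called at the first step and 1 over the span. No sequences were compared for this list. Arpp19 shares part of its name with Arpp21, and whether they are homologues was not checked. Of leading probes 8.26% and 15.1% were called in either direction. With the block 1 was lower and 1 higher at the first step, against 17.4% of all tested probes in either direction. Over the span 1 was lower and 2 higher with the block, against 23.4%. The gene called over the span was Arpp19, which rose by 0.37 ± 0.10 (limma adjusted p = 0.0453, and from 0.0658 to 0.211 when any single array was left out). Bcl11a, the nearest relative of Bcl11b, had mean intensities of 122, 126 and 105 at the 3 stages. R3hdm1, which shares an RNA-binding domain with Arpp21, had means of 212, 223 and 227. Mybl1 and Gfi1b lay under the filter, with means of at most 6.62 and 17.1. Bcl11a, R3hdm1, Mybl1 and Gfi1b were named after their values were seen, and the difference between each pair of relatives was not tested.

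**Figure D4:**
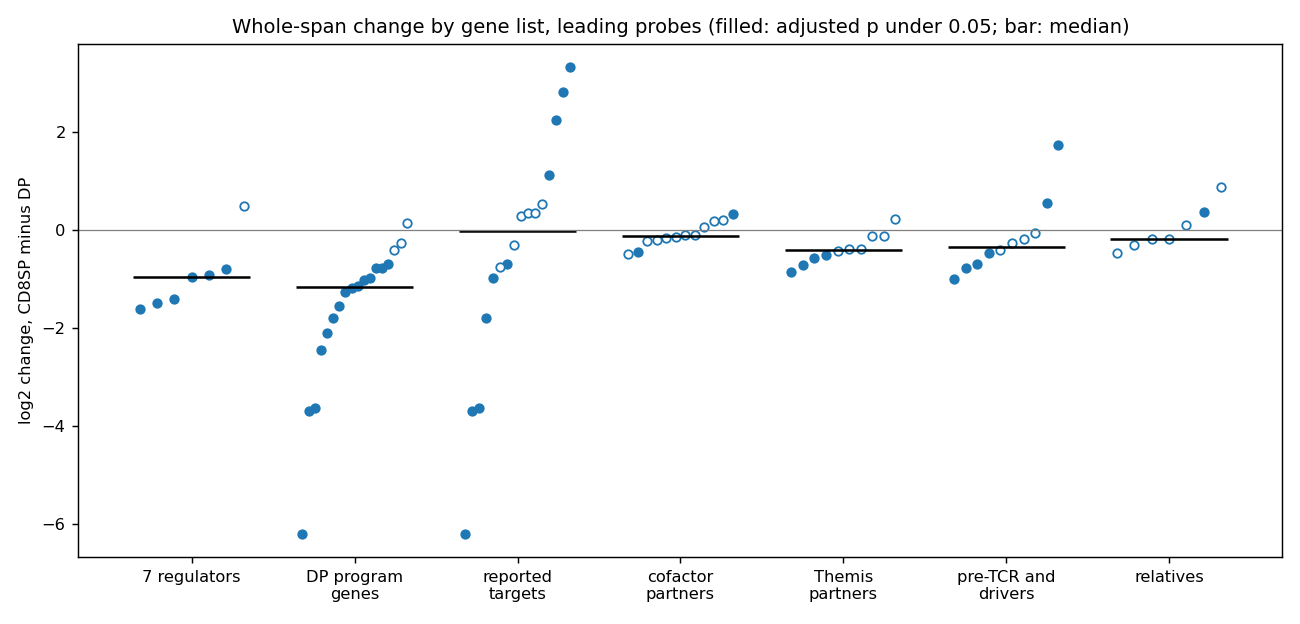
Log2 change from DP to CD8SP (y axis) of the leading probe of each tested gene, by list (x axis); filled symbols have a limma adjusted p under 0.05 and bars are list medians. The DP program list has its median at -1.16 and the list of reported targets at -0.02; the lowest point, Cd4, depends on the pseudocount because its later arrays are near or below 0.

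Among leading probes of 12761 other genes, those most like each member over the 6 arrays were found by the root mean square difference of centred log2 values. For Myb these were Bach1 (difference 0.087) and Galnt4 (0.091), and for Gfi1 Ptpn14 (0.10) and P2rx1 (0.11). For Bcl11b they were Usp3 (0.039) and Zbed4 (0.046), for Satb1 Shf (0.032) and Cd27 (0.047), and for Themis Stat5b (0.049) and Dck (0.050). For Arpp21 they were Ptprf (0.15) and Dab2ip (0.17). Ptcra was matched by Gm6958, at 61.1 and 84.5 (DP), 78.3 and 227 (CD4intCD8+) and 68.8 and 171 (CD8SP) (0.13), and by Arhgap19, at 44.4 and 63.8, 56.4 and 118, and 43.5 and 94.7 (0.20). Both have their highest arrays where Ptcra has. Cd27, a costimulatory receptor, read 1369 and 1309 (DP), 957 and 924 (CD4intCD8+) and 728 and 718 (CD8SP). These are matches of pattern on 6 arrays and carry no test.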

How the data were processed

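The table deposited by the authors gives a linear intensity for 45101 probes on 6 arrays, made per the labels' protocols from total RNA converted to biotin-labelled cRNA. The software, background correction and scaling are not given in the sources used here. Of all values, 3.6% lie below 0, and the array medians are near equal; whether a background was subtracted and the arrays scaled is not stated. If they were scaled, a change in total RNA per cell cannot be seen.

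Negative values were raised to 0 before taking log2(intensity + 5.84), the pseudocount being the 10th percentile of positive values; changes are on this scale and understate those of dim probes. Of 34945 probes with 1 symbol, those with a mean above the 40th percentile (intensity 20.3) were kept, 20967 in all. This filter kept 21 of the 23 member probes. All 6 arrays were fitted with limma 3.58.1 (R 4.3.3; lmFit, eBayes with an intensity trend, one term, the stage; 6.24 prior and 3 residual degrees of freedom), with Benjamini-Hochberg adjustment over the 20967 probes of each contrast. Probes rather than genes were tested because each probe of the members is shown; 1 probe per gene was an alternative. The fit was also run on 10 simulated tables for the first step only. It recovered 86.9% of changes of log2 size 1, with 5.11% of its calls false. The simulated noise was independent between arrays, whereas same-numbered arrays deviated together here, so these rates may not hold for these data.

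Same-numbered arrays deviated together (correlations of deviations from stage means 0.236, 0.171 and 0.214), and the labels name a pair of experiments. On these grounds replicate numbers were treated as pairing the arrays, which the labels do not state. Replicate 2 also had the higher actin ratio at each stage, and its part in the shared deviations was not tested. The blocked fit is given where it changes the call of a member probe, or a list's count at the first step or over the span. Named genes are the 7 members, up to 4 called genes of each of 6 lists with the largest change, and the 2 genes most like each member; others are marked. Members and lists were chosen with earlier results of these data known. Some listed genes and markers were not analysed here, and Nfil3 lay under the filter. Protein sequences were not used here. In 344 of 344 overlapping pairs of opposite-strand promoters the sequences were reverse complements.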

Additional observations from a re-analysis of the deposited data

How the results depend on the processing

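With 2 arrays a stage, the number of arrays limits every value, and dim probes lie close to 0. Over the whole span the count of 19 member probes stayed between 16 and 20 under every alternative run. At the first step the 16 member probes called became 8 in the fit with no trend and 8 with the actin covariate, and 6 to 18 when single arrays were left out; by leading probe the 6 genes became 2 without the trend and 2 to 6 with an array left out. At the second step the 0 called became 5 with the replicate block (2 genes by leading probe) and 1, Satb1 1436182_at, with the actin covariate. The block, which treats same-numbered arrays as paired, changed no other count of members by more than 1.5 times. The cause was not tested. Averaging or choosing probes per gene gives no probe count.

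Over all probes the first-step count of 1563 became 3647 with the block, 764 with gene means (all probes of a gene averaged), 494 with no trend, 380 with the covariate, and 312, 168 and 431 without DP replicate 1, DP replicate 2 and CD4intCD8+ replicate 2. The second-step count of 18 became 275 with the block, 2 with gene means, 0 with no trend and 32 with the covariate, and 9 to 65 when single arrays were left out. The whole-span count of 2920 became 4901 with the block, 1548 with gene means, and 1374, 1291 and 1419 without DP replicate 1, DP replicate 2 and CD8SP replicate 2. The test of the difference between the steps, with 0 calls, gave 206 with the block, 10 with the covariate, 1 with 1 probe per gene and 0 to 16 when single arrays were left out.

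With the actin covariate the difference between steps was 0.032 (Bcl11b 1435227_at), 0.33 (Bcl11b 1438784_at), 0.12 (Satb1 1436182_at) and -1.38 (Ptcra); Ptcra changed by -0.81, 0.57 and -0.25 at the first step, second step and over the span; and the second step was 0.14 for the leading Arpp21 probe and -0.068 for Lat. With gene means the second step was -0.13 for Arpp19 and 0.24 for Crebbp. With single arrays left out, Ptcra ran from -0.075 to 1.29 at the first step, -0.84 to 0.58 at the second, -0.23 to 1.19 over the span and -0.63 to 2.10 for the difference between steps. The difference between steps ran from -0.73 to 0.092 for Bcl11b 1438784_at, -0.27 to 0.058 for Satb1 1436182_at, -0.29 to 0.080 for Satb1 1439315_at and -0.43 to 0.27 for Themis 1439719_at. The first step of Satb1 1439315_at ran from -0.11 to 0.26, and the second step from -0.65 to 0.16 for the leading Arpp21 probe and -0.10 to 0.14 for Lat. The counts for DP program genes without CD4intCD8+ replicate 2, with the block and with the covariate were added after seeing the data.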

Other observations

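Among the reported targets of the factors, 3 genes outside the naming rule rose over the span. They were picked after their values were seen. Of the 16 tested targets 4 rose, 6 fell and 6 were not called over the span. The part of the regulators in these changes was not tested. Il7r, the interleukin 7 receptor chain that Gfi1 is known to repress, read 28.8 and 24.2 (DP), 66.8 and 55.7 (CD4intCD8+) and 152 and 318 (CD8SP) (log2 change over the span 2.81 ± 0.30, limma adjusted p = 0.000498). Myc, a growth regulator, read 43.8 and 27.8, then 95.4 and 116, then 201 and 171 (2.23 ± 0.21, adjusted p = 0.000328). Bcl2, a survival factor, read 361 and 313, then 586 and 476, then 740 and 737 (1.12 ± 0.14, adjusted p = 0.00106). Its relative Bcl2l1, which DP cells use for survival, went the other way, from 297 and 366 in DP to 107 and 126 in CD4intCD8+ and 73.1 and 111 in CD8SP (-1.81 ± 0.21, adjusted p = 0.000753).

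Id2, an inhibitor of E proteins that Gfi1 and Bcl11b are known to restrain, had mean intensities of 241, 135 and 144 at the 3 stages and was not called over the span (log2 change -0.76 ± 0.24, limma adjusted p = 0.0705; 0.00428 with the block).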
